A study of Mus musculus with 20 samples.

Results

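Hippocampal nuclei of 3 WT mice killed after 3 h of isoflurane anesthesia (WT-GA) were compared with those of 6 WT mice kept awake (WT-Awake). Members were all libraries labelled WT and either isoflurane or wake, 9 of the 20 libraries in the series, with 1 library per mouse. The study asks how the hippocampus responds to general anesthesia in a model of familial Alzheimer's disease (fAD), and the WT littermates give the response without the disease transgenes. All 9 were male littermates of the APP/PS1 line, aged 4.5 to 5.5 months. The WT-GA mice were mice 3, 16 and 18, which received isoflurane at 5% that was lowered to 1.5%. Mice 1, 12, 13, 14, 19 and 29 formed the WT-Awake group. The whole hippocampus was used, with UMIs of all nuclei summed per mouse, so that fewer nuclei of a type and less RNA per nucleus cannot be told apart in any value that follows.

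Isoflurane is a volatile anesthetic. It strengthens inhibition through GABA-A and glycine receptors, opens K2P background potassium channels and reduces transmitter release. Neuronal firing and calcium entry switch on immediate-early genes within minutes through CREB, serum response factor and the ERK kinase cascade, and the products of these genes (Npas4, Fos, Arc and others) act on transcription and on synapses. Their transcripts decay quickly and are for that reason used as a record of recent activity in the hippocampus.

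The 9 libraries held 5760 to 10284 nuclei each. Their totals were 11432646 to 20220677 UMIs in WT-Awake and 17797044 to 21768074 in WT-GA. Mitochondrial UMIs made up 1.05% in mouse 1 and 1.78% in mouse 3, and 0.0363% to 0.336% in the other 7, so the first run of mouse numbers stood apart in both groups. Pairs of WT libraries shared at most 0.399% of the barcodes of the smaller one. Markers of pyramidal neurons summed to 1125 to 1393 CPM (UMI counts scaled to 1 common library total) in WT-GA and 1143 to 1766 CPM in WT-Awake, and those of dentate granule neurons to 961 to 1485 CPM and 1107 to 1767 CPM, so the main neurons of the hippocampus were present in every library. Prnp, whose expression cassette drives transgenes of this line, reached 196 CPM in mouse 14, labelled WT-Awake, against 46.7 to 149 CPM in the other 8 libraries and 63.6 to 433 CPM in those labelled fAD-Awake or fAD-GA. Mouse 14 was therefore the highest of the 9. Mice 11, 17 and 20, labelled fAD, lay at 63.6, 74.5 and 99.7 CPM, within the range of the other WT mice. The remaining fAD mice of these states lay at 206 to 433 CPM, so mouse 14 lay between them and the other WT mice, nearer to the former. Results are given by the labels, and also without mouse 14 where they lead.

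No gene passed the threshold between WT-GA and WT-Awake. In edgeR's quasi-likelihood test, the adjusted p was under 0.05 for 0 of 19075 genes, which is 0% in either direction, and the smallest was 0.0981. An unadjusted p under 0.05 was found for 2384 genes (12.5%), of which 1239 (6.5%) were higher and 1145 (6%) lower in WT-GA. Without mouse 14 there were 0 calls and 2065 genes at that level, and without mice 1 and 3 there were 0 calls and 1823 genes. The count depended on the test, since DESeq2 called 396 genes (2.08%) on the same sums, 209 higher (1.1%) and 187 lower (0.98%), and limma-voom with quality weights called 993 (5.21%), 582 higher (3.05%) and 411 lower (2.15%). With the 7 fAD mice of both states in the same fit, which adds mice to the estimate of spread, edgeR called 10 genes in WT (0.0503% of 19895), 7 higher (0.0352%) and 3 lower (0.0151%). When runs of neighbouring mouse numbers were added to that fit as a block, a choice made after seeing the data, 75 genes were called (0.377%), 45 higher (0.226%) and 30 lower (0.151%). Members of the gene lists among the 75 were Npas4, Nr4a1, Arc, Homer1, Etv5, Spred2, Spry2, Spred1, Per2, P4ha1 and Kcnmb4, all lower, of which Npas4 and Etv5 were also called without the block. The block on the 9 WT mice alone gave 0 calls. The median log2 fold change of all genes was 0.00. A count that needs no model was the number of genes whose 3 WT-GA values all lay on the same side of all 6 WT-Awake values, and it was 792 above (4.15%) and 637 below (3.34%), 7.49% in all. In the text, CPM of single genes are scaled by the TMM factors of the libraries, log2 fold changes are WT-GA minus WT-Awake with their standard errors (SE), and all adjusted p are those of edgeR's quasi-likelihood test over all 19075 genes. As 0 genes were called, the values describe how far single genes lay apart.

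The transcription factor Npas4, which is induced by calcium entry in neurons, had the lowest p of the immediate-early genes. It lies on chromosome 19 of GRCm38 from 4984355 to 4990316. Npas4 was at 1.40, 2.48 and 1.51 CPM in WT-GA mice 3, 16 and 18 and between 5.25 and 9.77 CPM in WT-Awake, with a median of 6.82. These levels rested on 28 to 56 UMIs in WT-GA and 90 to 173 UMIs in WT-Awake. All anesthetized mice lay well below all awake mice, and the groups did not overlap. The log2 fold change of Npas4 was -2.0 (SE 0.30, adjusted p = 0.0981), and it was -2.05 without mouse 14. The nuclear receptor Nr4a1, a transcription factor of the same class of rapid responses, was at 17.5, 24.2 and 24.8 CPM in WT-GA and at 32.5 to 44.5 CPM (median 38.7) in WT-Awake. Its log2 fold change was -0.80 (SE 0.17, adjusted p = 0.138), again without overlap. Arc, which acts at the synapse in the removal of AMPA receptors, was at 2.76, 2.08 and 2.44 CPM in WT-GA and at 3.84 to 11.9 CPM (median 7.60) in WT-Awake. All 3 anesthetized mice were low and close together, while the awake mice spread over a wide range that began above them (log2 fold change -1.69, SE 0.37, adjusted p = 0.142). Homer1, which encodes a postsynaptic scaffold, was at 69.4, 126 and 104 CPM in WT-GA and at 122 to 294 CPM (median 201) in WT-Awake. Here mouse 16 lay just above the lowest awake mouse, and the log2 fold change was -0.98 (SE 0.28, adjusted p = 0.219).

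**Figure D1:**
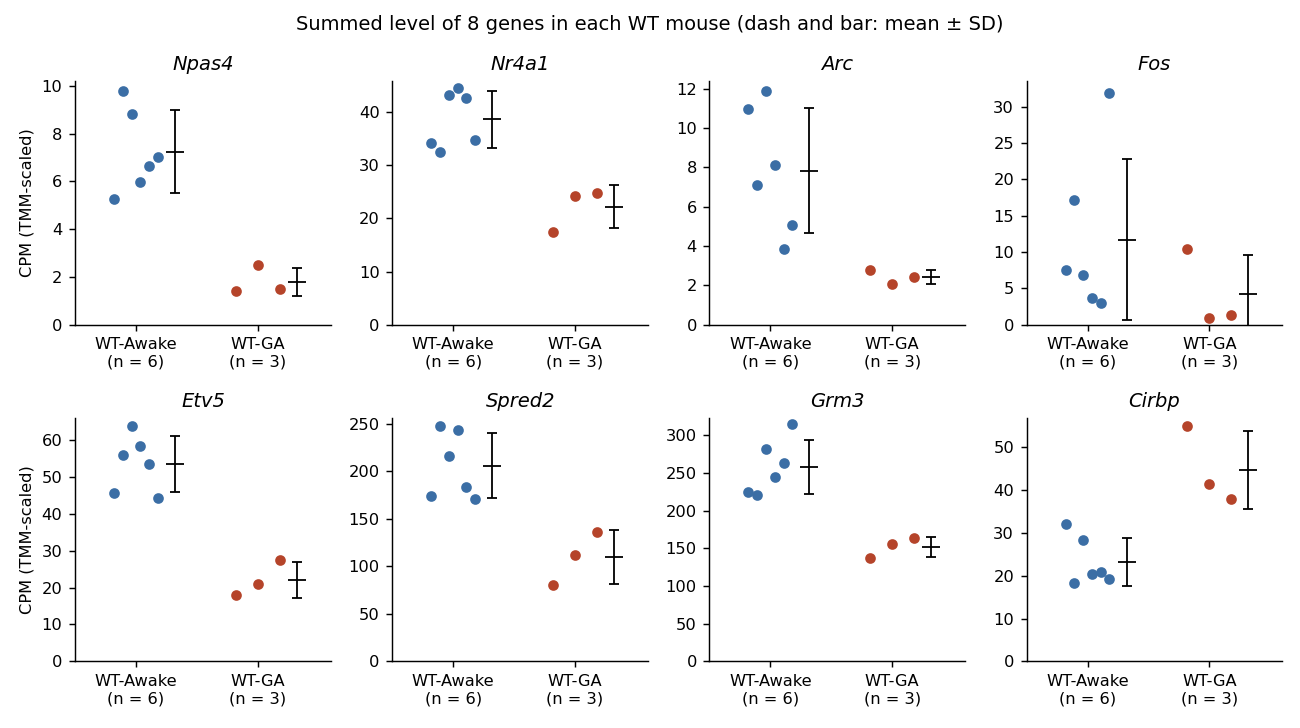
Level of 8 genes in each WT mouse in CPM scaled by TMM (y axes, linear from 0), with WT-Awake in blue, WT-GA in red and the mean ± SD beside the points (the lower bar of Fos in WT-GA runs past 0 and is clipped there). Npas4, Nr4a1, Arc, Etv5, Spred2 and Grm3 lay lower and Cirbp higher in all 3 WT-GA mice than in all 6 WT-Awake mice, whereas Fos was at 10.4 CPM in mouse 3 and overlapped.

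The promoters of the 3 genes of both lists with the lowest p that the RefSeq table holds are shown because CREB-type sites within them are the textbook route from calcium to these genes. Each is the 250 bases before a RefSeq start on GRCm38.p6, 5′ to 3′ on the gene's strand, and capitals mark TGACG or its complement CGTCA, the core of the CRE. All 3 lie inside the gene's span in GENCODE, from which the other coordinates come, so the outermost start there lies further upstream. Npas4 is chr19:4989972-4990221 (minus strand), Nr4a1 chr15:101266596-101266845 (plus) and Homer1 chr13:93303507-93303756 (plus, the first of 2 starts listed). Arc was not among the entries.
Npas4: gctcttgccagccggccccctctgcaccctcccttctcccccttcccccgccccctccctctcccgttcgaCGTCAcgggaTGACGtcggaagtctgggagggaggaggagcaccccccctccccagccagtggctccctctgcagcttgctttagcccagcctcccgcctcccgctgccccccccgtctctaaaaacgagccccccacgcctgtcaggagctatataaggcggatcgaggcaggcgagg
Nr4a1: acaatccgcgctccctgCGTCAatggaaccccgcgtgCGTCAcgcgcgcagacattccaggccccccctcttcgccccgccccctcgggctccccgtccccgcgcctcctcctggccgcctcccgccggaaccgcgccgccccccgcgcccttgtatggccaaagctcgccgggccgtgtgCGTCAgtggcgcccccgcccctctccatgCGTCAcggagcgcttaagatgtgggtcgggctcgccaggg
Homer1: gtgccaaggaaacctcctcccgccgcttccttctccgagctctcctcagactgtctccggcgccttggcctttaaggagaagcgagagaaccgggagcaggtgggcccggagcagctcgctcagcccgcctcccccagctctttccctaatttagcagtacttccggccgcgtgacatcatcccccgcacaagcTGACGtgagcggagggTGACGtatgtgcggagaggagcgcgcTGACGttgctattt

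Npas4 held 2 copies of TGACG, Nr4a1 4 and Homer1 3, searched on both strands, and none of them held TGACGTCA, in which TGACG is contained, or a CArG box. Of the immediate-early transcription factors 11 of 18 with an entry held TGACG (61.1%), as did 9 of 17 of the activity-induced effectors (52.9%), against 17.9% of 27025 promoters of the same length. TGACGTCA was found in 0 of the 18 and 3 of the 17, against 1.62% of those promoters, and the CArG box in 0 of both lists, against 1.40%. Of the genes of ERK output described below, 3 of 12 held TGACG (25%), 1 held TGACGTCA and 1 a CArG box. Each list also holds genes that were not lower. A match is a stretch of letters and no measure of binding.

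Not all rapid-response genes lay low under anesthesia. Of 24 immediate-early transcription factors tested, 6 were lower and 2 higher at an unadjusted p under 0.05 (all genes 6% and 6.5%), 2 lay below all awake mice (all genes 3.34%), and the median log2 fold change was -0.29. Besides Npas4 and Nr4a1, the lower ones were Nr4a3 (-1.25), Egr2 (-1.45, on 3 to 13 UMIs), Nr4a2 (-0.84) and Fosb (-1.04), while Jund (1.08) and Maff (1.70) were higher. Fos, the most used marker of activity, was at 0.886 and 1.33 CPM in mice 16 and 18 but at 10.4 CPM in mouse 3, and ran from 2.94 to 31.9 CPM in WT-Awake. Mouse 3 thus lay amid the awake mice for Fos (log2 fold change -1.47, SE 0.93, adjusted p = 0.529). Egr1, a zinc-finger factor of the same kind, had the same pattern, with 14.1 CPM in mouse 3, 2.13 and 3.11 CPM in mice 16 and 18, and 6.64 to 14.6 CPM in WT-Awake (log2 fold change -0.83, SE 0.53, adjusted p = 0.533). Without mouse 3 the values were -3.37 for Fos and -2.12 for Egr1, still not called, and the median of the list was -0.85. Without mice 1 and 3 of the first run, 11 of the 24 were lower and 1 higher at an unadjusted p under 0.05 (all genes 4.95% and 4.47%).

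Among the 24 activity-induced effectors, which carry the response to synapses and signalling, 5 were lower and 1 higher at an unadjusted p under 0.05 (all genes 6% and 6.5%), with a median of -0.14 that ran from -0.35 to -0.12 with 1 mouse left out. Arc and Homer1 were joined by the prohormone convertase Pcsk1 (-1.0), the kinase Sik1 (-0.69) and Tiparp (-0.45), and Rasl11b was higher (0.85). The neurotrophin Bdnf was at 40.3, 38.2 and 40.5 CPM in WT-GA and at 38.7 to 84.0 CPM (median 47.6) in WT-Awake, and the groups overlapped (log2 fold change -0.39, SE 0.23, adjusted p = 0.506). Without mice 1 and 3, 5 effectors were again lower and 1 higher (all genes 4.95% and 4.47%).

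Most genes that report the output of the ERK cascade had a negative log2 fold change, though 0 passed the adjusted threshold. Of 16 tested, 14 had a negative log2 fold change, and the median was -0.51, against 0.00 for all genes. At an unadjusted p under 0.05, 8 were lower and 0 higher (all genes 6% and 6.5%), and 6 lay below all awake mice (all genes 3.34%). Leaving out mice 1 and 3 gave 6 lower and 0 higher (all genes 4.95% and 4.47%). Etv5, an ETS transcription factor induced by growth factors through ERK, was at 18.0, 20.9 and 27.5 CPM in WT-GA and at 44.2 to 63.6 CPM (median 54.7) in WT-Awake. Its groups lay far apart, with a log2 fold change of -1.27 (SE 0.18, adjusted p = 0.0981; -1.25 without mouse 14). Etv5 lies on chromosome 16 from 22381309 to 22439719. Spred2, an inhibitor of the Ras to ERK step, was at 80.8, 113 and 137 CPM in WT-GA and at 171 to 248 CPM (median 200) in WT-Awake, without overlap (log2 fold change -0.91, SE 0.20, adjusted p = 0.135). Dusp5, the phosphatase that removes phosphate from nuclear ERK, had a log2 fold change of -1.44, and the Sprouty inhibitors Spry2 and Spry4 had -0.82 and -1.01. Spred3 was at -0.46. These 4 also lay below all awake mice. Spred1 (-0.78) and the ETS factor Etv1 (-0.50) had an unadjusted p under 0.05 with overlapping groups. The other 8 members had an unadjusted p above 0.05, and the phosphatase genes Dusp1 and Dusp2 had positive values of 0.71 and 0.66. In each of the 3 runs of consecutive mouse numbers that hold both groups, the anesthetized mouse had less Etv5 than the awake mouse, by 1.29, 1.44 and 0.94 on the log2(CPM + 1) scale.

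**Figure D2:**
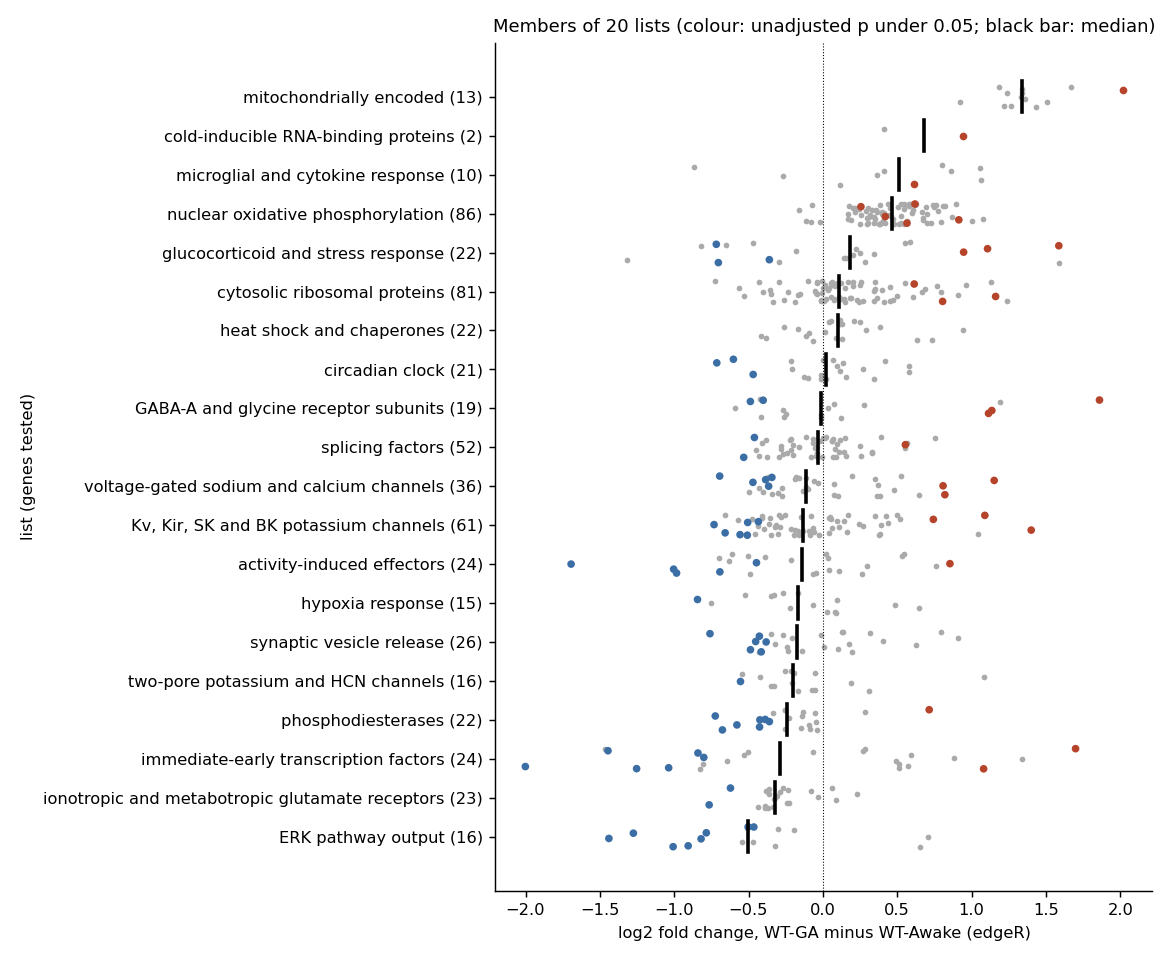
Log2 fold change (x axis, WT-GA minus WT-Awake) of every tested member of 20 gene lists (y axis, number tested in brackets), with members of unadjusted p under 0.05 in blue (lower) or red (higher), other members in grey and the median as a black bar. The list of ERK output had the lowest median (-0.51) and the mitochondrially encoded list the highest (1.34), and 0 members of any list passed the adjusted threshold.

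Of the receptors for glutamate, 20 of 23 tested had a negative log2 fold change and the median was -0.32, but only 2 had an unadjusted p under 0.05 (all genes 12.5%). That median was -0.13 without mouse 3 and -0.15 when these runs entered the fit as a block. Grm3, a metabotropic receptor found on glia and presynaptic terminals, was at 137, 155 and 164 CPM in WT-GA and at 220 to 314 CPM (median 254) in WT-Awake. The 3 anesthetized mice lay below all 6 awake mice, with a log2 fold change of -0.76 (SE 0.15, adjusted p = 0.115). Grin2b, a subunit of the NMDA receptor, was at 1113, 972 and 1072 CPM in WT-GA and 1216 to 2528 CPM in WT-Awake (log2 fold change -0.62, SE 0.24, adjusted p = 0.327). Among the targets of the anesthetic itself, differences ran both ways. Of 19 subunits of GABA-A and glycine receptors, 3 were higher and 2 lower at an unadjusted p under 0.05 (all genes 6.5% and 6%). Their median was -0.01. The lower ones were Gabra2 (-0.49) and Gabra4 (-0.40), and the higher ones Glra1, Gabrr2 and Gabrr1 (1.11). Glra1, a glycine receptor subunit, was at 1.85, 8.69 and 1.73 CPM in WT-GA and at 0.668 to 1.64 CPM in WT-Awake, so that mouse 16 carried most of its log2 fold change of 1.86 (SE 0.50, adjusted p = 0.195), which was 0.67 without that mouse. The rho subunit gene Gabrr2 had 1.14 (SE 0.38, adjusted p = 0.278) with overlap. Of 16 K2P and HCN channels, 13 had a negative log2 fold change, among them the K2P channel gene Kcnk10 (-0.33, adjusted p = 0.442). The median of the list was -0.20.

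Of 61 other potassium channel genes, 6 were lower and 3 higher at an unadjusted p under 0.05 (median -0.14), shares near the 6% and 6.5% of all genes. Kcnv2, which encodes a silent subunit that modifies Kv2 channels, was higher, at 4.41, 2.70 and 3.51 CPM in WT-GA and 0.954 to 1.75 CPM in WT-Awake, with no overlap (log2 fold change 1.40, SE 0.28, adjusted p = 0.131). Kcnmb4, an auxiliary subunit of the BK channel, was lower without overlap (log2 fold change -0.56, SE 0.15, adjusted p = 0.192). Among 36 sodium and calcium channel genes 5 were lower and 3 higher (all genes 6% and 6.5%), with a median of -0.11. The pair with the lowest p, Cacng6 (1.15) and Scn4b (0.82), was higher from low levels of 0.561 to 1.44 CPM and 0.906 to 1.32 CPM in WT-Awake. Of 26 genes of synaptic vesicle release, 6 were lower and 0 higher (all genes 6% and 6.5%), with a median of -0.17 that ran from -0.25 to -0.0723 with 1 mouse left out and was -0.0926 with the run block. The vesicle glycoprotein gene Sv2b was at 106, 102 and 126 CPM in WT-GA and 152 to 261 CPM in WT-Awake (log2 fold change -0.76, SE 0.18, adjusted p = 0.161). Syn2, a synapsin that ties vesicles together, had -0.45 (SE 0.13, adjusted p = 0.235), and both lay below all awake mice. Of 22 phosphodiesterases, the enzymes that break down cAMP and cGMP, 20 had a negative log2 fold change, 7 were lower and 1 higher at an unadjusted p under 0.05 (all genes 6% and 6.5%), and the median was -0.24, or -0.12 with the run block. Without mice 1 and 3 the counts were 3 and 0 (all genes 4.95% and 4.47%). Pde4b, which degrades cAMP, was at 417, 466 and 436 CPM in WT-GA and at 573 to 976 CPM (median 699) in WT-Awake, without overlap (log2 fold change -0.72, SE 0.17, adjusted p = 0.161). Pde5a, which degrades cGMP, had -0.58 (SE 0.20, adjusted p = 0.285). Sv2b, Syn2 and Pde4b were in the fifth of tested genes with the highest level, of which 12.7% were lower and 1.97% higher.

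Among the lists for stress, temperature and time of day, single genes lay apart. Cirbp, an RNA-binding protein gene induced by mild cooling, was at 55.0, 41.3 and 37.9 CPM in WT-GA and at 18.2 to 32.1 CPM (median 20.7) in WT-Awake. All 3 anesthetized mice lay above all awake mice (log2 fold change 0.94, SE 0.21, adjusted p = 0.14). Rbm3, the other gene of this list of 2, overlapped (0.41, SE 0.29, adjusted p = 0.573), and the median of the list was 0.68. Of 22 genes of the glucocorticoid and stress response 3 were higher and 3 lower at an unadjusted p under 0.05 (all genes 6.5% and 6%), with a median of 0.18. There were 6 higher and 2 lower without mice 1 and 3 (all genes 4.47% and 4.95%), with a median of 0.0252. Hif3a, of the family of hypoxia-inducible factors, was at 25.1, 45.3 and 45.0 CPM in WT-GA and 13.4 to 23.5 CPM in WT-Awake (log2 fold change 1.11, SE 0.24, adjusted p = 0.132). The glucocorticoid receptor gene Nr3c1 was at 61.7, 69.5 and 68.9 CPM in WT-GA and 79.9 to 133 CPM in WT-Awake (log2 fold change -0.72, SE 0.16, adjusted p = 0.14), and the mineralocorticoid receptor gene Nr3c2 had -0.70. Both steroid receptor genes thus had negative values, Nr3c1 without overlap. Of the other genes of this list, Arrdc2 (1.59) and Plin4 (0.95) were higher and Sgk1 (-0.36) lower at an unadjusted p under 0.05. The hormone-induced Fkbp5 was at 58.2, 142 and 146 CPM in WT-GA and 76.1 to 128 CPM in WT-Awake (0.22). Mouse 3 thus lay below all awake mice, and mice 16 and 18 above them. Of 22 heat shock genes 0 had an unadjusted p under 0.05 (all genes 12.5%), and the lowest p were those of Hsph1 (-0.38, adjusted p = 0.513) and Dnajb1 (-0.42, adjusted p = 0.6). Of 15 hypoxia genes 1 was lower (all genes 6%). It was P4ha1, a collagen prolyl hydroxylase (-0.85, SE 0.21, adjusted p = 0.17), and Kdm3a had -0.27. Of 21 clock genes 3 were lower and 0 higher (all genes 6% and 6.5%), with a median of 0.02. Among the lower were Rorb (-0.60, SE 0.17, adjusted p = 0.222) and Per2 (-0.71, SE 0.23, adjusted p = 0.257). Rorb is also on the list of subicular and cortical markers, of which 5 of 6, Rorb included, had a negative log2 fold change. The part of such cells in its value was not tested. Of 10 cytokine and microglial genes 8 had a positive log2 fold change, with a median of 0.51. At an unadjusted p under 0.05, 1 was higher (all genes 6.5%), the transcription factor gene Stat3 (0.61, SE 0.17, adjusted p = 0.207). Its inhibitor Socs3 had 1.06 with an SE of 0.55. Of 52 splicing factors 1 was higher (Snrpa1, 0.56) and 2 lower (all genes 6.5% and 6%), shares not above those of all genes. Of the lower ones Hnrnpa2b1 (-0.53) had the lowest p.

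The genes of energy supply varied with single libraries. All 13 mitochondrially encoded genes had a positive log2 fold change (median 1.34), with mt-Atp8 at 17.5, 0.931 and 6.17 CPM in WT-GA and 0.901 to 5.29 CPM in WT-Awake and mt-Nd5 at 133, 14.4 and 38.8 CPM and 9.89 to 83.4 CPM. Mouse 3 was the highest of all and mouse 1, of the same run, the highest awake mouse. The median of the list was -0.12 without mouse 3 but 0.99 without mice 1 and 3. Within runs it was 0.67 (mouse 3 minus 1), -0.66 (16 minus 14) and 2.4 (18 minus 19). The 86 nuclear genes of oxidative phosphorylation had a median of 0.46, with 81 positive, 5 higher and 0 lower at an unadjusted p under 0.05 (all genes 6.5% and 6%), among them Cyc1 (0.91). Without mouse 3 that median was -0.55, and without mice 1 and 3 it was -0.19. The 81 cytosolic ribosomal protein genes, many of which share reads with processed pseudogenes, had a median of 0.11 (Rpl3 0.81, Rpl4 0.61), and of -0.94 without mouse 3. The medians of all 3 lists therefore turned when that library was left out, and the part of its high mitochondrial share in them was not tested.

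Over all genes, those with an adjusted p under 0.1 were chosen after their values were seen. Besides Npas4 and Etv5, the only other lower one was Dlx6os1, a noncoding RNA from the Dlx5 and Dlx6 locus of interneurons, on chromosome 6 from 6820189 to 6871592. Dlx6os1 was at 13.8, 14.7 and 12.1 CPM in WT-GA and at 25.1 to 53.8 CPM (median 36.3) in WT-Awake, so that no anesthetized mouse came near an awake mouse (log2 fold change -1.49, SE 0.22, adjusted p = 0.0981). Summed markers of interneurons ran from 697 to 994 CPM in WT-GA and from 743 to 1113 CPM in WT-Awake, and 8 of 10 markers had a positive log2 fold change. The only interneuron marker with an unadjusted p under 0.05 was Erbb4, a neuregulin receptor gene, at 508, 621 and 532 CPM in WT-GA and 649 to 793 CPM in WT-Awake (log2 fold change -0.35, adjusted p = 0.323). Within runs the summed interneuron markers were lower in the anesthetized mouse each time, at 994 against 1113 CPM, 808 against 830 CPM and 697 against 743 CPM. The part of interneuron number in the value of Dlx6os1 was not tested. Higher were Gm17382, 4930509E16Rik, E230016K23Rik, Gm38825 and Wnt1. Gm17382, a noncoding gene on chromosome 17, was at 29.6, 22.4 and 27.6 CPM in WT-GA and at 10.2 to 13.6 CPM (median 10.8) in WT-Awake (log2 fold change 1.22, SE 0.16, adjusted p = 0.0981). Wnt1, a secreted signalling protein gene, was at 12.4, 1.91 and 4.66 CPM in WT-GA and 0.308 to 0.954 CPM in WT-Awake, on 43 to 247 and 3 to 20 UMIs (3.28, SE 0.51). Gm17382 and Wnt1 were higher in each anesthetized mouse than in any awake mouse. In the fit of 16 mice the 10 genes called in WT were Etv5, Npas4 and Dlx6os1, all lower, and E230016K23Rik, Gm38825, Mannr, Gm34354, Gm16553, Adam32 and Dcst2, all higher. E230016K23Rik had 2 to 9 UMIs in WT-Awake and 28 to 44 in WT-GA. Such a gene could enter the WT test through the WT-GA libraries alone, so its place among the higher genes is no independent result.

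Slco1a4, an organic anion carrier of the blood-brain barrier and a marker of endothelium, was at 6.47, 1.64 and 1.20 CPM in WT-GA and at 5.61 to 22.1 CPM (median 12.9) in WT-Awake. Mouse 3 lay just above the lowest awake mouse (log2 fold change -2.01, SE 0.59, adjusted p = 0.232). The thyroxine carrier gene Slco1c1, singled out after its values were seen, had -1.13 (SE 0.30, adjusted p = 0.195). Of 6 endothelial markers, Slco1a4 included, 4 had a negative log2 fold change and 0 were at 0 UMIs over the 9 mice, and their sum was 17.6 to 96.6 CPM in WT-GA and 24.4 to 116 CPM in WT-Awake. Without mice 1 and 3, 4 of the 6 were lower at an unadjusted p under 0.05 (all genes 4.95%) and the sum differed by -0.91 on the log2 scale. With the run block the median of the 6 was -1.07, against -0.15 without it. With all 9 mice 2 of the 6 were positive. The part of endothelial nuclei in the values of Slco1a4 and Slco1c1 was not tested. Col1a1 of fibroblasts was at 38.1 CPM in mouse 12 and 18.0 CPM in mouse 29, and Fn1 at 110 and 276 CPM in these awake mice, against 7.62 to 23.8 CPM of Fn1 in the other awake mice and 6.66 to 12.3 CPM in WT-GA. These 2 libraries were the highest for both genes. The log2 fold changes of -3.58 (Col1a1) and -3.08 (Fn1) weakened to -2.64 and -1.95 at most with 1 mouse left out. A fit without both mice was not run. Over 17 measures of the libraries, namely nuclei, UMIs per nucleus, mitochondrial share and 14 summed marker lists, the exact permutation test (two-sided, 84 splits, smallest possible p 0.0119) gave no raw p below 0.107 and adjusted p of 0.976. This test ignores the runs, within each of which the anesthetized mouse had lower endothelial, mural, dentate granule, interneuron and oligodendrocyte precursor sums than its awake mouse (endothelium 96.6 against 116 CPM, 17.6 against 45.0 CPM and 22.9 against 63.0 CPM). The marker sums differed by -0.65 (fibroblasts) to 0.36 (microglia) on the log2 scale.

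The direction of differences varied with the level, length and class of the gene. Tested genes were split into 5 groups of equal size by mean level over the same 9 mice. The gene filter asked for enough counts in as many libraries as the smaller group holds, so low genes could enter through WT-GA alone. Examples are 4930509E16Rik, with 1 to 5 UMIs in WT-Awake and 23 to 27 in WT-GA, and E230016K23Rik, with 2 to 9 and 28 to 44. Part of the split by level may follow from this grouping and filter. The same holds for the split by class, as 1690 of 3933 long noncoding genes were in the lowest group by level. How much was not tested. In the lowest group 9.83% were higher and 2.70% lower in WT-GA at an unadjusted p under 0.05, and in the highest group 1.97% were higher and 12.7% lower. Split by gene length, 7.26% of the shortest group were higher and 2.31% lower, against 3.04% and 14.9% of the longest group, whose median length was 131070 bases. By class, 13.7% of 1404 lincRNA genes were higher and 3.21% lower, and 20.0% of 120 noncoding genes at bidirectional promoters were higher and 0.833% lower, whereas protein-coding genes were at 5.61% and 6.54%. Antisense genes, the largest noncoding class (1776), were at 6.81% and 4.67%, and at 3.66% in both directions without mice 1 and 3. Without mice 1 and 3 the split by level was narrower, with 5.37% and 2.65% in the lowest group by level, 1.91% and 8.68% in the highest, and 8.05% and 3.49% of lincRNA genes. The shortest genes then were at 4.38% higher and 3.20% lower, close to the 4.47% higher of all genes, while the longest were at 2.96% and 10.5%. Low genes and lincRNA genes thus made up more of the higher side, and long, abundant genes more of the lower side, in both settings. The shortest group had a larger share of higher genes than all genes with all 9 mice only. The second-shortest group kept it without mice 1 and 3, with 5.64% higher and 2.47% lower. Among protein-coding genes alone, 8.92% of the lowest group by level were higher and 2.92% lower, against 1.82% and 12.9% of the highest group. Long noncoding genes were at 11.0% and 2.43% in the lowest group and at 4.15% and 10.4% in the highest. The split by level was thus present within both classes. The parts of length and of library depth were not tested. The gene lists above were set beside all genes, and not beside genes of like level or length.

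**Figure D3:**
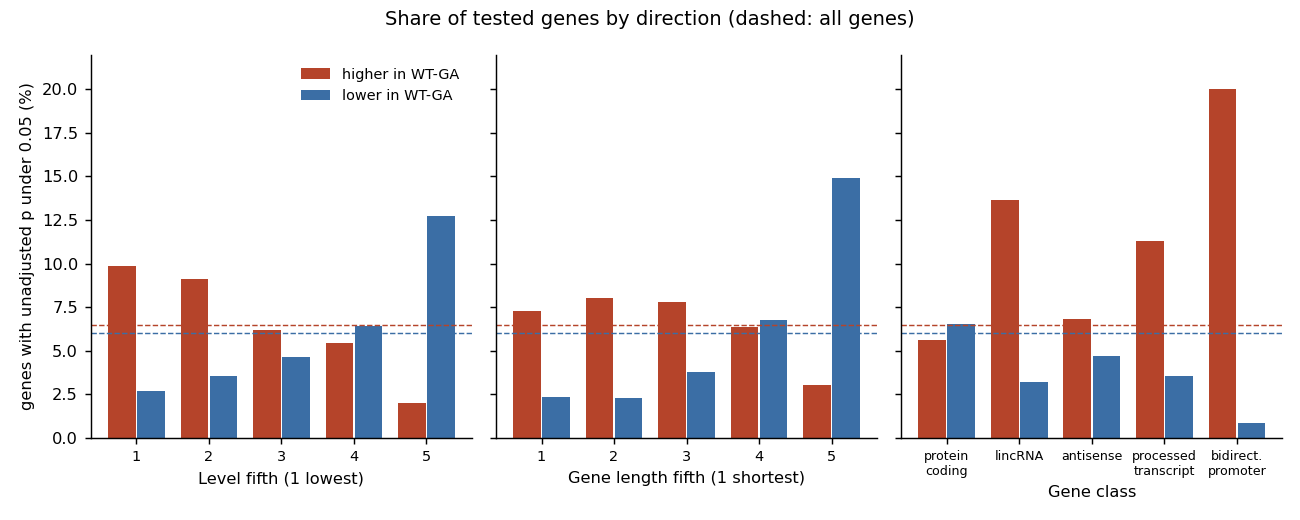
Percent of tested genes (y axis) with an unadjusted p under 0.05 that were higher (red) or lower (blue) in WT-GA, by 5 equal groups of mean level, 5 equal groups of gene length and gene class, with all genes as dashed lines (6.5% and 6%). The lowest group by level had 9.83% higher and the highest group 12.7% lower, and bidirectional-promoter noncoding genes had the largest share of higher genes of the 5 classes drawn (20.0%).

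The same contrast in the fAD littermates, 4 fAD-GA against 3 fAD-Awake mice, compares other mice and so can be set beside these values. In the fit of 16 mice, whose spread is estimated with the WT mice and which called 10 genes in WT, it called 58 of 19895 genes (0.292%), 53 higher (0.266%) and 5 lower (0.0251%), and the difference between genotypes called 0, with 475 genes (2.39%) at an unadjusted p under 0.05 and 0 calls by DESeq2 as well (602 at that level). The count at that level was 177 without mouse 20, 239 without mouse 2, 912 without mouse 17, 1008 without mouse 1, 1262 without mouse 4 and 1038 with the run block, with 0 calls each time. Of the 2384 WT genes at an unadjusted p under 0.05, 85.6% had the same sign in fAD mice, against 58.3% of all genes. Npas4 had a log2 fold change of -1.82 in fAD mice (SE 0.30), Etv5 -0.83 (SE 0.20), Dlx6os1 -1.20 (SE 0.21) and Grm3 -0.79 (SE 0.16). Their differences from WT had unadjusted p of 0.66, 0.11, 0.33 and 0.94, which does not show that they were equal. Arc had -2.82 in fAD mice (SE 0.39), and WT minus fAD was 1.12 on the log2 scale, with an unadjusted p of 0.047 in the fit of 16 mice. Cirbp had -0.17 in fAD mice (SE 0.29) against 0.94 in WT (WT minus fAD 1.11, unadjusted p = 0.011 in that fit). Scn4b had -0.40 in fAD mice against 0.82 in WT (WT minus fAD 1.22, unadjusted p = 0.009). None of these differences passed the adjusted threshold. The genotype labels of mice 11, 14, 17 and 20 are in doubt by Prnp. This touches both the comparison of genotypes and the contrast within WT, and how much was not tested beyond leaving out single mice.

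**Figure D4:**
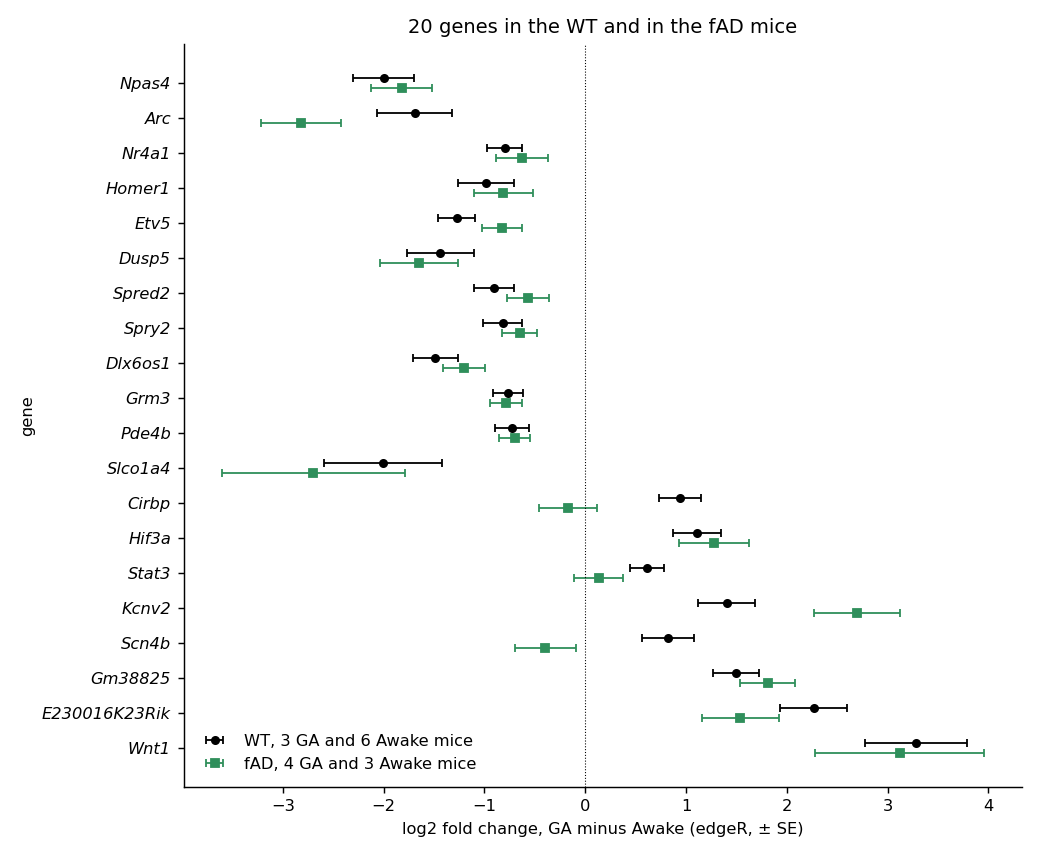
Log2 fold change of anesthesia against wake (x axis, ± SE) for 20 genes (y axis) in WT mice (black circles, 3 against 6) and fAD mice (green squares, 4 against 3). Npas4, Arc, Etv5 and Grm3 lay below 0 in both genotypes, and Cirbp was at 0.94 in WT and -0.17 in fAD.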

How the data were processed

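Nuclei of 20 mouse hippocampi were profiled with 10x 3' libraries (v3 in the methods, another version in the labels). The deposited values are raw UMI counts, by gene and by nucleus, as the authors left them. The submitters' processing notes name Cell Ranger 5.0.0 and mm10, and the methods add introns, CellBender, DoubletFinder and a minimum of 200 genes (0 nuclei of these 9 libraries were below it). The file header names Cell Ranger only, so whether CellBender or doublet removal shaped these counts is not given in the sources used here. No doublets were removed here. Killing is perfusion in the labels and decapitation in the methods. The series design counts 5 awake and 4 isoflurane WT mice, whereas the labels, followed here, give 6 and 3. The legend of the study's figure gives 4 of each. The design and the legend thus share the isoflurane count, from which the labels differ.

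Counts were summed over all nuclei per mouse and fitted by the quasi-likelihood method of edgeR 4.0.16 under R 4.3.3 (filterByExpr, TMM, two-sided tests, Benjamini-Hochberg, 7 residual degrees of freedom, common BCV 0.315), on the 9 WT mice without covariates. The methods test CA1 nuclei with MAST and a batch term. Here mice are the replicates, and p-values set the group difference against the spread between mice. By the methods, tissue was handled in batches that each held all experimental groups, but the labels name no batch. Runs of consecutive mouse numbers were therefore used as a block in an alternative. Mice 1 to 4 and 14 to 17 hold every wake and isoflurane group, whereas mice 10 to 13 and 18 to 20 do not. Deviations from the group means correlated at r = 0.77, 0.26 and 0.52 over 10221 genes between the mice of both groups within a run. Between mice of different runs, r was up to 0.51 (16 and 19). Mice 12 and 13 of the same run had -0.205. That value cannot speak to a batch, since both are WT-Awake and taking off their shared group mean lowers r. Whether the runs were batches was not tested. The block gave 0 calls as well (2407 genes at an unadjusted p under 0.05). DESeq2 1.42.0, limma 3.58.1 and the settings of the closing section were alternatives, of which 16 mice with the block was added after seeing the data. Tests were tried on simulated data. Pair differences within runs use log2(CPM + 1). Summed markers and Prnp are CPM without TMM scaling. Lengths and coordinates are from GENCODE M21 (GRCm38) and promoters from RefSeq (GRCm38.p6), matched by symbol. Depth was 11432646 to 21768074 UMIs per mouse. Members and gene lists were chosen with earlier results of these data known. Named are the 2 lowest p of each list, Fos, Arc, Npas4, Egr1, Nr4a1 and Bdnf, with marker lists given as sums, and all further genes were chosen after their values were seen, the genes with promoters included. Some genes that this rule names are not reported here. Ketamine libraries were not used here except in the fit of 20 mice.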

Additional observations from a re-analysis of the deposited data

Results flagged for a closer look

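Of 102 values tested among the 6 WT-Awake mice, 15 had a mouse whose gap to the nearest other mouse took more than 0.625 of the group's range, and chance flags about 1 in 20 such groups. In mouse 1 these were the mitochondrial share (1.05%), mt-Nd5 (83.4 CPM), mt-Atp8 (5.29 CPM), the summed interneuron (1113 CPM) and mural cell markers (97.1 CPM), Vtn of mural cells (55.6 CPM), Dcn of fibroblasts (59.6 CPM), Hbb-bs of red blood cells (36.3 CPM), all high, and Kcnk10 (58.0 CPM), which was low. In mouse 12 Sv2b (261 CPM) and Camk2a (1336 CPM) were high. In mouse 19 Bdnf (84.0 CPM), the astrocyte glutamate transporter gene Slc1a2 (1162 CPM), Stxbp6 of dentate granule neurons (604 CPM) and Alas2 of red blood cells (77.4 CPM) were high. The 3 WT-GA mice were too few for this test, so the high mitochondrial share of mouse 3 was not tested in that way.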

How the results depend on the processing

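At an adjusted p of 0.05, 0 genes were called under DESeq2 size factors in edgeR, either gene filter, the run block, without mice 1 and 3, without mitochondrial genes, in the other sums of nuclei and with each mouse left out. DESeq2 called 396, limma-voom with quality weights 993, the fit of 16 mice 10, that of 20 mice 21 and that of 16 mice with the run block 75. Of list genes these called 23, 37, 2, 2 and 11, and the share of the list genes was not worked out. Over all genes the shares were 2.08% (DESeq2), 5.21% (limma-voom), 0.0503% (16 mice) and 0.377% (16 mice with the block). No excess of list genes is therefore read from these counts. At an unadjusted p under 0.05 the count was 1676 to 2938 with 1 mouse left out, 4487 with limma-voom, 1316 with genes of at least 10 CPM and 3730 for 16 mice with the block. The cause was not tested.

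Medians moved without mice 1 and 3 to -0.82 (immediate-early), -0.10 (clock), -0.21 (heat shock), -0.27 (K2P and HCN), -0.19 (oxidative phosphorylation) and -0.72 (ribosomal), and with limma-voom to -0.68 (immediate-early), -0.66 (ERK), -0.0849 (clock), -0.18 (heat shock) and -0.22 (oxidative phosphorylation). Equal nuclei gave -0.45 (immediate-early) and -0.0901 (K2P and HCN), genes of at least 10 CPM 0.10 (hypoxia) and -0.20 (GABA-A and glycine), and the phosphodiesterase median was -0.12 with the run block and -0.13 with 16 mice as well. With 1 mouse left out the medians ran from -0.85 to -0.13 (immediate-early), -0.64 to -0.46 (ERK), -0.0891 to 0.10 (clock), -0.21 to 0.39 (glucocorticoid), -0.30 to 0.26 (heat shock), -0.42 to -0.0554 (hypoxia), -0.29 to 0.0396 (GABA-A and glycine), -0.21 to 0.0510 (sodium and calcium), -0.28 to -0.13 (phosphodiesterases), -0.55 to 0.82 (oxidative phosphorylation) and -0.94 to 0.41 (ribosomal), and mt-Nd5 from -0.0252 to 1.96. Mouse 3 gave the lower end for clock, glucocorticoid, heat shock, hypoxia, oxidative phosphorylation, ribosomal genes and mt-Nd5.

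Marker sums changed sign without mice 1 and 3 for oligodendrocyte precursors (-0.0513), choroid plexus (-1.86) and blood (-0.0475). With 1 mouse left out they ran from -0.17 to 0.0827 (interneurons), -0.36 to 0.0512 (astrocytes), -0.0646 to 0.28 (oligodendrocytes), -0.12 to 0.13 (their precursors), -1.18 to 0.0453 (endothelium), -0.91 to 0.41 (mural), -1.47 to 0.79 (choroid plexus), -0.29 to 0.51 (thalamus) and -0.22 to 0.23 (blood). The mitochondrial list has no value without mitochondrial genes. Each mouse number is used once in the labels, so pairs came only from runs of consecutive numbers. With that run block 0 genes were called in the 9 WT mice, where no call changed, while in 16 mice it moved the calls from 10 to 75. Between genotypes, 0 genes were called with each mouse left out, without mice 1 to 4, with no gene filter and with the block. Counts per gene limit low genes such as Egr2.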
